A study of Homo sapiens with 30 samples.

Results

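A broad H3K4me3 domain is a stretch of chromatin in which trimethylation of histone H3 at lysine 4 extends over several kilobases, where an ordinary promoter carries a narrow peak. In OCI-Ly1, an established line of human lymphoma cells (diffuse large B-cell type), 1075 of the 21268 consensus H3K4me3 peaks deposited by the authors were at least 4000 bp wide and lay on chromosomes 1 to 22 or X. These 1075 peaks are the broad domains described here. The width is the deposited end minus the deposited start, and 2 further peaks of this width on other contigs or chromosome Y were left out. The domains were thus chosen by a measured value, the width of H3K4me3 over all libraries, so the widths and levels below describe how the domains were chosen and carry no test. The rule did not use the changes with treatment, but it was set with earlier results of these data known. A width taken over all libraries can also depend on the treated ones.

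The groups were cells given JIB-04 at 150 nM, cells given 500 nM, and cells given only the vehicle, 0.01% DMSO. JIB-04 is a small molecule inhibitor of Jumonji demethylases, enzymes that remove methyl groups from histones. Chromatin of formaldehyde-fixed cells was immunoprecipitated for H3K4me3 or for H3K27ac, an acetylation mark of active promoters and enhancers, and sequenced. Each mark had 2 libraries for DMSO, 2 for 150 nM and 2 for 500 nM, so a group mean is over n = 2. All libraries come from a single cell line with no change of genotype between groups, and the time of treatment is not given in the sources used here. The labels do not say whether the 2 libraries of a group came from separate cultures. The p-values thus measure only the spread between these libraries, which may be technical. For H3K4me3 that spread was near counting noise, with a chi-square per degree of freedom of 1.12 for DMSO, 0.92 for 150 nM and 1.19 for 500 nM. The small p-values below rest on this narrow spread.

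H3K4me3 is written by the SET1 and MLL (KMT2) methyltransferase complexes and erased in part by Jumonji enzymes of the KDM5 family, which need iron, oxygen and alpha-ketoglutarate. At most active genes the mark forms a short peak around and just downstream of the transcription start. In many cell types the broadest stretches lie over genes that define the cell's identity, and in B cells these include the transcription factors of the lineage.

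The 6 H3K4me3 libraries held 9680558 to 12322167 reads in the 20402 peaks that passed the filter on low counts, and all 1075 domains passed it. The median count per domain was 1355 to 1849 by library, and the lowest was 140 to 280. All 10 markers of B cells had an H3K4me3 peak over a gene end, and 6 of them lay in a broad domain. Their summed level was 1982 to 2038 CPM in the DMSO and 150 nM libraries and 1774 to 1813 CPM at 500 nM (each count divided by the reads of that library in all tested peaks, after TMM scaling between libraries). Of 11 T cell markers, 6 had no peak and none had a domain, at a summed level of 144 to 146 CPM in the DMSO and 150 nM libraries and 137 to 139 CPM at 500 nM. CD14 alone had a peak among 7 myeloid markers, with 9.72 to 12.6 CPM in the DMSO and 150 nM libraries and 16.5 to 17.8 CPM at 500 nM. EPCAM alone had one among 8 markers of stroma and epithelium, at 62.4 to 71.7 CPM.

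The domains were 4001 to 15463 bp wide with a median of 4790 bp. Their mean DMSO level ranged from 5.13 to 95.1 CPM per kb with a median of 31.0, beside a median of 32.6 for the 8288 peaks of 1500 to 3000 bp. For comparison each domain was paired with an unused peak of 1500 to 3000 bp whose log2 DMSO CPM per kb was nearest, within 0.1, and all 1075 found such a peer. Gene starts were taken from a RefSeq table that lists starts for 79.0% of protein-coding genes and for none on chromosome 8. A listed start lay inside 830 domains, or 77.2%, and inside 74.8% of the peers. A further 126 domains covered an end of a gene for which no start is listed, and 119 covered neither. Of those 119, 97 overlapped a gene and 22 lay outside all genes. Whether a domain covered exons or introns was not analysed here.

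The domains held the listed starts of 1181 genes, 925 of them protein-coding. Starts of 2 or more genes lay in 31.4% of domains and 18.9% of peers, and starts on both strands in 29.5% and 18.0%, over a width that is larger by design. In the 492 domains whose starts belonged to 1 gene on 1 strand, the domain reached a median of 1282.5 bp upstream and 3532.5 bp downstream of the outermost start. The reach was longer downstream in 409 of them, or 83.1%. The 601 peers of this kind reached 753 bp upstream and 1338 bp downstream, and 84.7% were longer downstream. In both classes most peaks thus extended further downstream than upstream of the outermost start. Where a gene had several listed starts in a peak, using the outermost makes the downstream reach longer and the upstream reach shorter.

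**Figure D1:**
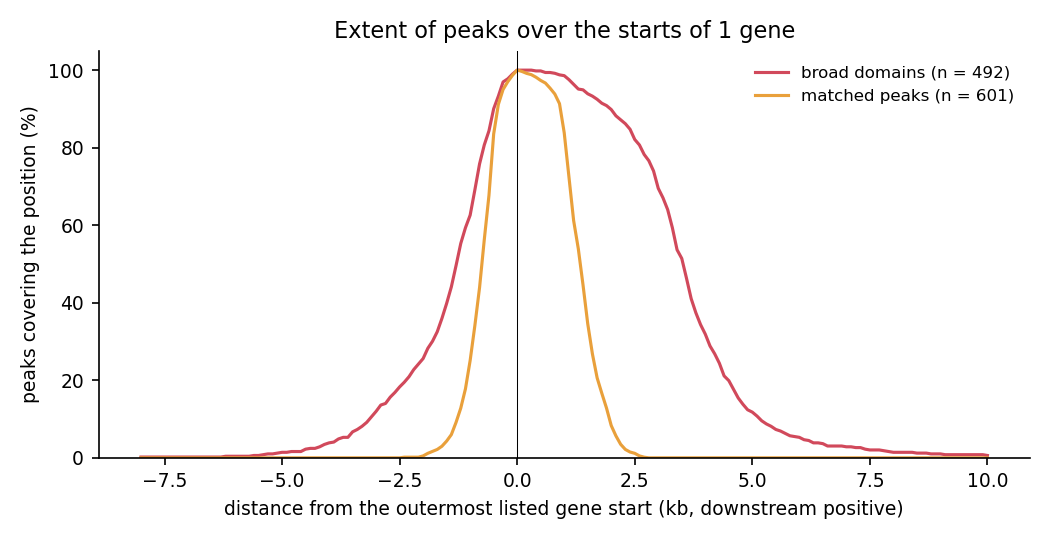
Share of peaks (vertical axis, %) that cover each position relative to the outermost listed gene start (horizontal axis, kb, downstream positive), for 492 broad domains and 601 density-matched peaks of 1500 to 3000 bp with starts of 1 gene on 1 strand. The domain curve falls off more slowly on both sides, with a median reach of 3532.5 bp downstream and 1282.5 bp upstream.

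Promoter sequences are shown for 5 genes whose domains the results turn on: PAX5 and RHOH for the widest domains, SLC16A3 for a domain that fell at 500 nM, and LAPTM5 and CHAC1 for domains that rose. Each is 250 bases before to 50 after a listed start, 5′ to 3′ on the gene's strand, from RefSeq on GRCh38.p14. Capitals mark CG dinucleotides in the first 4 and the letters TGATGCAA or their reverse complement in CHAC1. PAX5 is chr9:37034219-37034518 on the minus strand, RHOH (the first of 4 starts in its domain) chr4:40190830-40191129 on the plus strand, and SLC16A3 (the second of 3) chr17:82228792-82229091 on the plus strand. LAPTM5 is chr1:30757725-30758024 on the minus strand and CHAC1 chr15:40953221-40953520 on the plus strand.
PAX5: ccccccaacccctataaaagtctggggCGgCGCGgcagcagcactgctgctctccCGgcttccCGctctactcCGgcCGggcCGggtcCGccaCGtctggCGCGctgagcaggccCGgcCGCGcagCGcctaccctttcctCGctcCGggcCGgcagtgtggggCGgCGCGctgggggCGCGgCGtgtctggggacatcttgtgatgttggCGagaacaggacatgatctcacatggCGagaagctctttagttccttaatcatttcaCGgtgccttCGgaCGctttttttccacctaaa
RHOH: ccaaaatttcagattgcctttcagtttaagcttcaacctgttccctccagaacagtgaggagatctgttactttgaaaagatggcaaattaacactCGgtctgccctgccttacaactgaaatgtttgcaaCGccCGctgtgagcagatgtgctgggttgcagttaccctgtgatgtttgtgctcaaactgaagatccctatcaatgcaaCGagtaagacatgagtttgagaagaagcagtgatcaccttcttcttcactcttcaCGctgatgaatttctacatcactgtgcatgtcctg
SLC16A3: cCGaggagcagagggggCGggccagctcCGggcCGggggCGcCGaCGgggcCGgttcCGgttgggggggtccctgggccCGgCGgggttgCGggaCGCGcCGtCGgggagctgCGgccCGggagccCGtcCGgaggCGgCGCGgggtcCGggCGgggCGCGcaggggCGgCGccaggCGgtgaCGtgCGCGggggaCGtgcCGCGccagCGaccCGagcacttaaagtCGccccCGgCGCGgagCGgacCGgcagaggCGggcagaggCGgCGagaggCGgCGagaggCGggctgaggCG
LAPTM5: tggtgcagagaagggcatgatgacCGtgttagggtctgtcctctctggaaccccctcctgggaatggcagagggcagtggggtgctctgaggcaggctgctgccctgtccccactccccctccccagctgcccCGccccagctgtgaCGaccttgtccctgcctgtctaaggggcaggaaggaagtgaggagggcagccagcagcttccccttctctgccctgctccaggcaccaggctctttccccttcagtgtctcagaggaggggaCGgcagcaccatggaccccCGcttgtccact
CHAC1: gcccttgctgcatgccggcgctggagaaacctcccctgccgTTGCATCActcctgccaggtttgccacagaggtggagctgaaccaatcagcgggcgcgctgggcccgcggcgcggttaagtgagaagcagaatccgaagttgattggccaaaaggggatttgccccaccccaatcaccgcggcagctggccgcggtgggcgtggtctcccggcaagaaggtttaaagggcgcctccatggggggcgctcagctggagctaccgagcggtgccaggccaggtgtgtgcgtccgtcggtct

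PAX5 held 30 CG dinucleotides in these 300 bases and SLC16A3 51, whereas RHOH and LAPTM5 held 5 each. Both CG-rich and CG-poor starts thus lay under broad domains, and the widest domain of all, over RHOH, had no start with more than 9. Over the 1596 starts under domains the median was 27 CG dinucleotides with an observed over expected ratio of 0.856. It was 26 with 0.843 over the 1224 starts under peers, and 14 with 0.579 over all 35116 listed promoters of the same length. TGATGCAA, letters of the composite element that ATF4 binds with C/EBP factors, was searched on both strands. It occurred in 4 of 111 starts under domains that rose at 500 nM (3.6%), 7 of 822 under domains that fell (0.852%), 16 of 1596 under all domains (1.00%) and 304 of all 35116 (0.866%), beside 4 of the 1224 under peers (0.327%). ACGTG on either strand, the core letters of the element bound by HIF proteins, occurred in 29.7%, 27%, 25.9% and 21.4% of the same groups, and in 27.1% under peers. The 111 starts under risen domains belonged to 76 genes. TGATGCAA also lay in the first listed start of BCL6, whose domain fell. The listed starts of RIMS3, LAPTM5 and FOSL2, whose domains rose, did not hold it. A match is a description of the letters only.

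The 5 widest domains lay over RHOH (chr4:40189951-40205413, 15463 bp), PAX5 (chr9:37023700-37038314, 14615 bp), BCL6 (chr3:187735884-187747577, 11694 bp), BCL2 (chr18:63312001-63323538, 11538 bp) and ZNF608 (chr5:124738722-124749787, 11066 bp). RHOH encodes a small GTPase of blood cells, PAX5 the factor that commits cells to the B lineage, BCL6 the repressor of the germinal centre and BCL2 an inhibitor of apoptosis. The RHOH domain held 493 and 476 CPM with DMSO alone, 489 and 477 CPM with 150 nM and 438 and 428 CPM with 500 nM. PAX5 held 489.9 and 473 CPM with DMSO alone, 494 and 480.0 CPM with 150 nM and 446 and 436 CPM with 500 nM. BCL6 held 371 and 362 CPM with DMSO alone, 368 and 365 CPM with 150 nM and 335 and 317 CPM with 500 nM. In these 3 domains both 500 nM libraries were below all the others, and the ranges of the DMSO and 150 nM libraries overlapped. The log2 fold change at 500 nM was -0.16 ± 0.027 (SE) for RHOH, -0.13 ± 0.027 for PAX5 and -0.17 ± 0.029 for BCL6 (adjusted p = 1.6e-06, 1.4e-04 and 2.8e-06, edgeR's quasi-likelihood test with Benjamini-Hochberg adjustment over all 20402 tested peaks). With loess offsets on abundance in place of TMM the change was -0.060 for RHOH and -0.075 for BCL6, both still past the threshold, and -0.023 for PAX5, which no longer passed the test. BCL2 passed the test at -0.076 with TMM (adjusted p = 0.023, edgeR), but with loess offsets the sign turned (0.024). ZNF608, a zinc finger gene, stood at 0.0039, which did not pass the test (adjusted p = 0.93), and passed as a rise with loess offsets (0.088).

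The 5 domains with most DMSO H3K4me3 per kb lay over MYC (95.1 CPM per kb), PLEKHF2 (73.2), ZBTB10 (66.4), RIPK2 (66.0) and DDIT4 (64.8). The first 4 are on chromosome 8, which the table of starts does not cover, so these domains are placed by gene ends. The levels are reads per kb not corrected for input or for DNA copy number. The part of copy number in this ranking was not tested. MYC is the oncogenic transcription factor, RIPK2 a kinase of innate immune signalling and DDIT4 a stress-induced inhibitor of mTORC1. The MYC domain held 653 and 707 CPM with DMSO alone, 678 and 679 CPM with 150 nM and 639.7 and 685 CPM with 500 nM. The groups overlapped, and the log2 fold change of -0.038 at 500 nM did not pass the test (adjusted p = 0.3, edgeR), and with loess offsets it was 0.077 and passed as a rise. The DDIT4 domain held 259 and 278 CPM with DMSO alone, 284 and 282 CPM with 150 nM and 218 and 223 CPM with 500 nM. Its 500 nM libraries were the lowest, with a log2 fold change of -0.28 ± 0.031 (adjusted p = 4.6e-11, edgeR). PLEKHF2 (-0.23) and RIPK2 (-0.18) fell, and ZBTB10 (-0.053, or 0.036 with loess offsets) did not pass the test.

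At 500 nM many broad domains lost a little H3K4me3 relative to the other peaks. Of the 1075 domains 592 fell and 74 rose against DMSO (edgeR, adjusted p under 0.05), so 62.0% passed the test where 39.4% of all tested peaks did. The background was 18.7% for falls and 20.7% for rises. The median log2 fold change of the domains was -0.10, a fall of 6.72%, beside -0.035 for the density-matched peers and -0.0063 for all tested peaks. Of the peers 229 fell and 157 rose. At an unadjusted p under 0.05 there were 741 domains (68.9%, beside 47.1% of all tested peaks). Both 500 nM libraries lay below both DMSO libraries in 740 domains (68.8%, beside 34.3% of all tested peaks) and above both in 119 (11.1%, beside 33.7%). The split between falls and rises moved with the scaling: loess offsets on abundance gave 354 falls and 166 rises, and scaling by the total count gave 464 and 113. The shares of all tested peaks under these scalings are not given here. With loess offsets the medians were -0.032 for the domains and 0.0037 for the peers, of which 157 fell and 198 rose.

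Domains took 16.9% and 16.7% of the reads in tested peaks in the DMSO libraries, 17% and 16.9% with 150 nM, and 16.0% and 15.8% with 500 nM. Both 500 nM libraries were below the other 4, which overlapped. The means were 16.8% ± 0.141 (SD, n = 2), 16.9% ± 0.0947 and 15.9% ± 0.106. In the matched peers the shares were 7.20% and 7.20%, 7.18% and 7.18%, and 7.23% and 7.25%. A domain holds more reads than a peer of the same density, so a smaller change can pass the test there. Among the 731 domains that had a peer within 0.1 in log2 total DMSO reads, 392 fell and 61 rose with a median of -0.10, and among those peers 157 fell and 36 rose with a median of -0.045. These peers were denser, at a median of 49.5 against 25.8 CPM per kb, and 3.28% of them lacked a start against 14.6% of the domains; the part of either in the difference was not tested.

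**Figure D2:**
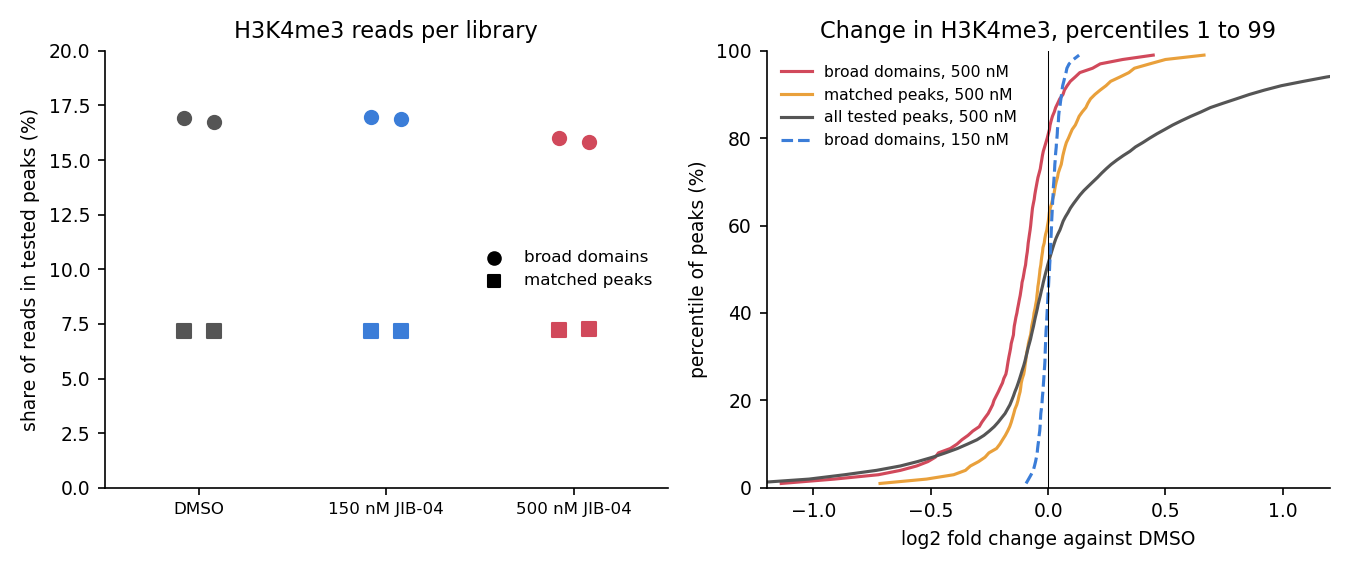
Left, share of the reads in tested H3K4me3 peaks (vertical axis, %) that lay in the 1075 broad domains (circles) and in their 1075 density-matched peaks (squares), 1 point per library; right, percentiles 1 to 99 of the log2 fold change against DMSO (horizontal axis) at 500 nM (solid lines) and, for the domains, at 150 nM (dashed line). The 500 nM libraries have 16.0% and 15.8% of reads in domains, below the other 4, and the 500 nM curve of the domains crosses its median at -0.10.

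Large rises were few among the domains, whereas large falls were about as frequent as in all tested peaks and more frequent than in the peers. At 500 nM 68 domains (6.33%) were at or below -0.50 on the log2 scale, beside 6.87% of all tested peaks and 24 of the 1075 peers (2.23%). Only 11 domains (1.02%) were at or above 0.50, beside 17.9% of all tested peaks and 22 peers (2.05%). All domains past either size passed the test. Across domains the change went weakly with width (Spearman's rho -0.16) and with DMSO CPM per kb (0.14), n = 1075 domains that share the same libraries. In 4 equal-sized groups by width the median was -0.080, -0.096, -0.099 and -0.14 from the narrowest to the widest, and in 4 groups by DMSO CPM per kb -0.15, -0.11, -0.10 and -0.080 from the sparsest to the densest.

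At 150 nM no broad domain passed the test against DMSO, where 0% of all tested peaks did. At an unadjusted p under 0.05 there were 58 domains (5.40%, beside 4.66% of all tested peaks) by edgeR and 4 by DESeq2, which also called none. The median log2 fold change of the domains was 0.0059 at 150 nM. Both 150 nM libraries lay above both DMSO libraries in 188 domains (17.5%, beside 17.2% of all tested peaks) and below both in 148 (13.8%, beside 16.8%). Between the doses, 598 domains were lower and 78 higher at 500 nM than at 150 nM, or 62.9% where 39.2% of all tested peaks were called, with a background of 18.6% for falls and 20.5% for rises. At an unadjusted p under 0.05 there were 755 domains, beside 46.8% of all tested peaks. Both 500 nM libraries lay below both 150 nM libraries in 756 domains (70.3%, beside 34.4% of all tested peaks) and above both in 124 (11.5%, beside 34.4%). This comparison and that of 500 nM against DMSO share the 500 nM libraries.

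The median change was lower among domains that held no gene start. The 830 domains over a listed start had a median log2 fold change of -0.090 (432 fell, 60 rose), beside -0.027 for 830 peers over a start matched on density (139 fell, 114 rose). The 126 domains over an end of a gene with no listed start had a median of -0.11 (75 fell, 6 rose). The 119 domains without either had a median of -0.25 (85 fell, 8 rose), beside -0.088 for 119 matched peers of the same kind (40 fell, 25 rose). For the 97 that overlapped a gene the median was -0.18, and for the 22 outside genes -0.43, of which 18 fell and 1 rose. No test of the difference between these classes was made. With loess offsets the 3 medians for listed starts, unlisted ends and no start were -0.022, -0.035 and -0.21.

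Of the 112 domains without a start on chromosomes other than 8, 13 lay within 5000 bp of a listed start and 67 lay more than 20000 bp from one, with a median distance of 26304 bp. The 119 had a lower DMSO level than domains over a start, with a median of 18.5 CPM per kb against 31.8. At or below -0.50 there were 32 of 119 (26.9%) without a start and 30 of 830 (3.61%) over a listed start. In the matched peers the counts were 12 of 119 (10.1%) and 4 of 830 (0.482%), and in all peaks of 1500 to 3000 bp 245 of 1290 (19.0%) and 65 of 5988 (1.09%). At or below -1 there were 20 domains in all, beside 2.12% of all tested peaks, of which 11 had no start, 7 a listed start and 2 an end of a gene with no listed start. At or above 1 there was 1, beside 7.92% of all tested peaks.

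**Figure D3:**
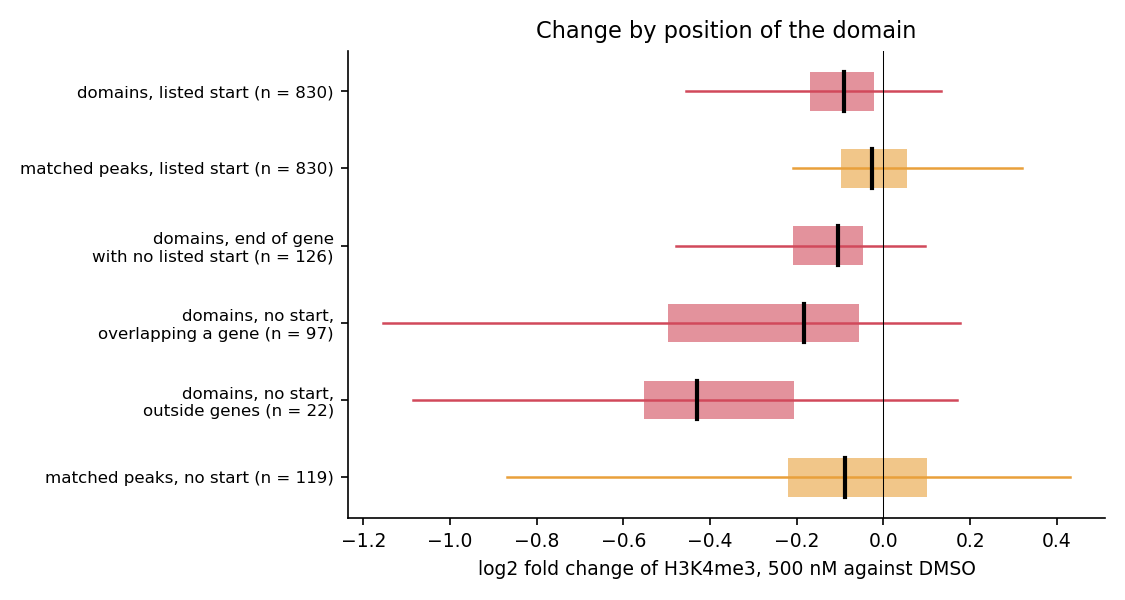
Log2 fold change of H3K4me3 at 500 nM against DMSO (horizontal axis) by position of the domain (red) and in density-matched peaks of 1500 to 3000 bp (orange). Black bars are medians, boxes the middle 50% and lines percentiles 5 to 95 over peaks; the medians run from -0.090 over listed starts to -0.43 outside genes.

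The largest fall was at HIF1A-AS2 and HIF1A-AS3 (chr14:61747878-61752334), antisense RNAs of the hypoxia factor gene HIF1A. ChIP reads carry no strand, so the mark cannot be given to one strand. The domain held 76.3 and 61.9 CPM with DMSO alone, 76.3 and 68.3 CPM with 150 nM and 17.2 and 15.6 CPM with 500 nM. The 500 nM libraries were far below the other 4, with 16.4 ± 1.10 against 69.1 ± 10.2 CPM in DMSO (mean ± SD, n = 2). The level was 4.23-fold lower (log2 fold change -2.08 ± 0.083 SE, adjusted p = 3.3e-29, edgeR). At SCIRT (chr6:44072398-44079174), a long noncoding RNA, the domain held 137 and 125 CPM with DMSO alone, 147 and 139 CPM with 150 nM and 36.6 and 30.2 CPM with 500 nM. It was 3.91-fold lower at 500 nM than in DMSO (log2 fold change -1.97 ± 0.057, adjusted p = 1.1e-35, edgeR), and the groups did not overlap.

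At CHLSN (chr7:1022839-1030809) the domain held 185 and 182 CPM with DMSO alone, 212 and 189.7 CPM with 150 nM and 72.3 and 66.8 CPM with 500 nM. At SLC16A3 (chr17:82228090-82232349), which exports lactate from glycolytic cells, it held 112 and 109.5 CPM with DMSO alone, 122 and 102 CPM with 150 nM and 48.0 and 49.0 CPM with 500 nM. In both, the 500 nM libraries lay far below the other 4. The log2 fold changes were -1.39 ± 0.045 for CHLSN and -1.2 ± 0.057 for SLC16A3 (adjusted p = 1.6e-33 and 1.1e-25, edgeR).

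The other 4 of the 8 largest falls had no listed start. A domain outside genes (chr10:86389181-86393410) held 83.0 and 87.7 CPM with DMSO alone, 96.1 and 91.3 CPM with 150 nM and 34.5 and 33.9 CPM with 500 nM. One inside B4GALT5 (chr20:49665668-49670321), a galactosyltransferase of glycolipid synthesis, went from 36.8 and 35.1 CPM in DMSO to 17.1 and 14.3 CPM at 500 nM. In both the 500 nM libraries were the lowest. One inside LINC01484 (chr5:173715747-173721259), a noncoding RNA, went from 84.4 and 83.3 CPM to 39.9 and 33.4 CPM, and one inside SNX29 (chr16:12316567-12320646), a sorting nexin, from 54.0 and 48.3 CPM to 22.8 and 23 CPM. The 4 log2 fold changes ran from -1.31 to -1.17, and in none did the 500 nM and DMSO libraries overlap.

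The largest rise was inside ZNF217 (chr20:53578916-53583289), a zinc finger oncogene, at a domain with no listed start. It held 40.5 and 34.1 CPM with DMSO alone, 42.3 and 37.6 CPM with 150 nM and 91.9 and 87.0 CPM with 500 nM, with a log2 fold change of 1.25 ± 0.059 (adjusted p = 7.5e-26, edgeR). RIMS3 (chr1:40662324-40666544), a regulator of vesicle release, held 34.1 and 39.1 CPM with DMSO alone, 34.0 and 33.9 CPM with 150 nM and 70.1 and 67.5 CPM with 500 nM. It was 1.89-fold higher at 500 nM than in DMSO (log2 0.92 ± 0.060, adjusted p = 1.2e-19, edgeR). In both domains the 500 nM libraries were above the other 4. LAPTM5 (chr1:30753348-30758315), a lysosomal protein of lymphocytes that lowers antigen receptor levels, held 72.8 and 71.0 CPM with DMSO alone, 74.5 and 74.1 CPM with 150 nM and 134 and 129.6 CPM with 500 nM. Its groups at 500 nM and DMSO did not overlap either (log2 0.87 ± 0.043, adjusted p = 3.7e-25, edgeR).

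FOSL2 (chr2:28389917-28393998), a subunit of the transcription factor AP-1, rose by 0.79 ± 0.047 on the log2 scale and IER5L (chr9:129173979-129178887) by 0.64 ± 0.059. CHAC1 (chr15:40952160-40956625), a glutathione-degrading enzyme induced by ATF4 in the stress response, held 106 and 112 CPM with DMSO alone, 104 and 107 CPM with 150 nM and 166 and 169.6 CPM with 500 nM. Its 500 nM libraries were the highest (log2 0.62 ± 0.038, adjusted p = 5.7e-21, edgeR). The last 2 of the 8 largest rises were ELF1 (chr13:40978688-40983469), an ETS factor of lymphocytes, at 0.61, and SLC43A1 (chr11:57512306-57516440), a transporter of neutral amino acids, at 0.61.

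**Figure D4:**
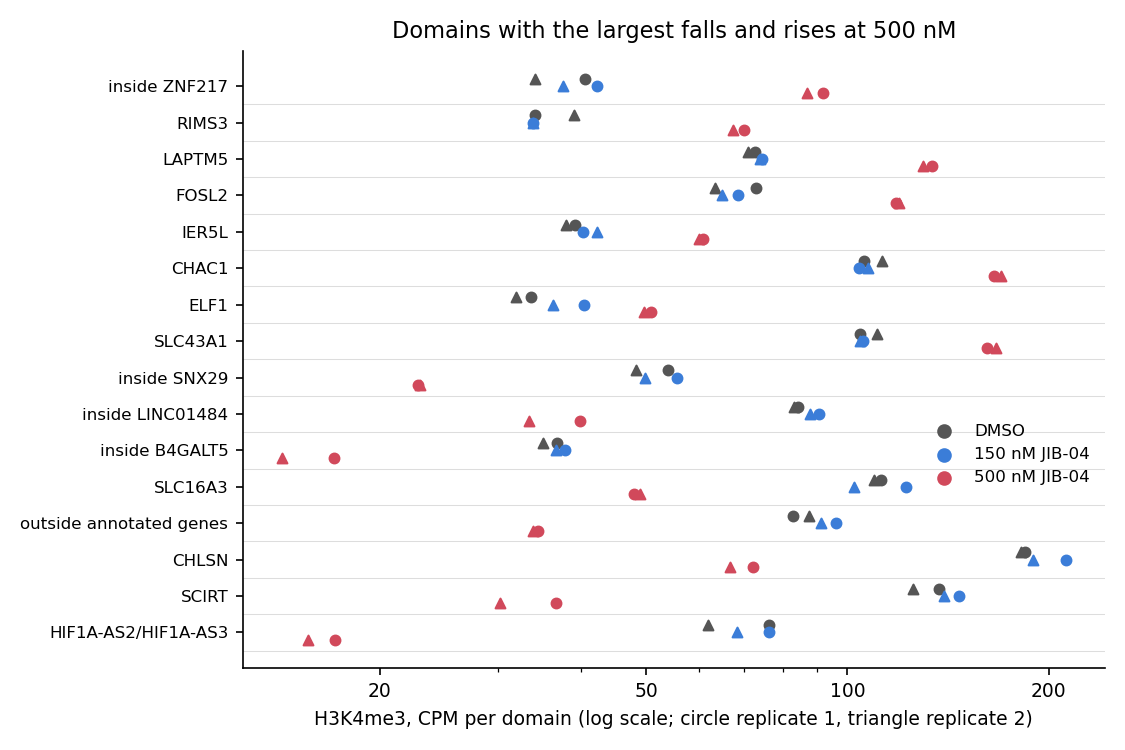
H3K4me3 level in CPM (horizontal axis, log scale) of the 8 domains with the largest rises and the 8 with the largest falls at 500 nM against DMSO, 1 point per library (circles replicate 1, triangles replicate 2). In every row both red points (500 nM) lie beyond all grey (DMSO) and blue (150 nM) points, as at HIF1A-AS2/HIF1A-AS3, where 17.2 and 15.6 CPM stand against 76.3 and 61.9 CPM in DMSO.

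A start or end of 1444 of 38382 protein-coding and long noncoding genes (3.76%) lay in a broad domain. Only 14983 of the 38382 had any H3K4me3 peak there, so the share among genes with a peak is higher. In the lists of B-cell factors, oncogenes and splicing factors 21 of 22, 16 of 16 and 24 of 24 had a peak. The lists that follow were chosen with earlier results of these data known, so their counts are descriptions. They stand beside 55.1% of all 1075 domains that fell and 6.88% that rose at 500 nM. Among 22 transcription factors of B cells 17 had a domain, of which 7 fell and 3 rose at 500 nM with a median of -0.065 on the log2 scale. TCF3 (-0.27), BCL6 (-0.17), IKZF1 (-0.15), PAX5 (-0.13), MEF2C (-0.12), POU2AF1 (-0.11) and FOXP1 (-0.097) fell, and ELF1 (0.61), IRF8 (0.25) and MEF2B (0.11) rose. IRF8, a factor of germinal centre B cells, held 154 and 148 CPM with DMSO alone, 165 and 166 CPM with 150 nM and 180.3 and 178 CPM with 500 nM. Both 500 nM libraries were above all the others, and the 150 nM libraries above both DMSO libraries, although the 150 nM difference did not pass the test (adjusted p = 0.73, edgeR). EBF1, BACH2, BCL11A, TCF4, IKZF3, FOXO1 and RUNX3 did not pass the test at 500 nM. With loess offsets 2 of the 17 fell and 4 rose, and the median was 0.022, so the direction of this list turned with the scaling. DESeq2 called 4 lower and 2 higher.

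Of 22 genes of the B cell surface and receptor signalling 9 had a domain, of which CD79B (-0.34), CD22 (-0.18) and BLNK (-0.16) fell and PIK3CD (0.12) rose. CD79B, the signalling chain of the B cell receptor, held 267 and 269 CPM with DMSO alone, 266 and 263 CPM with 150 nM and 207 and 216 CPM with 500 nM. Both 500 nM libraries were far below the others, with a log2 fold change of -0.34 ± 0.030 (adjusted p = 2.1e-14, edgeR). At MS4A1, the gene of CD20, the domain held 128 and 116 CPM with DMSO alone, 127 and 123 CPM with 150 nM and 128 and 119 CPM with 500 nM, and the groups overlapped. The list's median was -0.019 with TMM, 0.015 scaled by the total count and 0.038 with loess offsets. BLNK no longer passed with loess offsets, with total-count scaling or with DESeq2, and CD22 and PIK3CD no longer passed with DESeq2.

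Of 10 genes of plasma cells 3 had a domain. TNFRSF17, the receptor BCMA, held 58.3 and 55.7 CPM with DMSO alone, 56.7 and 57.0 CPM with 150 nM and 87.3 and 83.3 CPM with 500 nM (log2 0.58 ± 0.050, adjusted p = 5.9e-15, edgeR). Its domain also overlaps NPIPB2, a member of a multicopy family whose reads may be shared. IRF4, the factor that drives plasma cell fate, held 247 and 255 CPM with DMSO alone, 246 and 252 CPM with 150 nM and 269.7 and 290.3 CPM with 500 nM (log2 0.15 ± 0.031, adjusted p = 3.8e-05, edgeR). In both domains the 500 nM libraries were above the DMSO libraries, and JCHAIN (0.038) did not pass the test. LEF1 was the only domain among 14 T cell genes and fell (-0.15). CEBPB, a factor of myeloid cells and of the stress response, was the only one among 12 myeloid genes and rose (0.50). CD14, the only 1 of the 7 myeloid markers with a peak, was also higher at 500 nM, at a low level of 16.5 to 17.8 CPM. Its relation to the rise at CEBPB was not tested. None of 12 genes of stroma and epithelium had a domain.

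Of 22 tumour suppressors of lymphoma 10 had a domain, of which 5 fell and none rose, among them P2RY8 (-0.56), BTG2 (-0.19), BTG1 (-0.14) and KMT2D (-0.089). P2RY8, a receptor that confines germinal centre B cells, lies in a region shared by the sex chromosomes, where reads cannot be placed on one of them. Of 16 lymphoma oncogenes 10 had a domain, of which BCL6 (-0.17), REL (-0.16), PIM1 (-0.14), BCL2L1 (-0.12) and BCL2 (-0.076) fell and none rose. EZH2, MYC, MCL1, BCL7A and XPO1 did not pass the test. Of all 1075 domains 55.1% fell and 6.88% rose, so the falls in both lists were near the share of all domains. With loess offsets 2 tumour suppressors fell and 1 rose, and 2 oncogenes fell and 1 rose; BTG1, KMT2D, PIM1, BCL2L1 and BCL2 then no longer passed as falls. DESeq2 called 3 lower in each of these lists and none higher.

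Of 22 Jumonji demethylase genes, the family that JIB-04 inhibits, JMJD1C and KDM6B had a domain. KDM6B, an eraser of H3K27 methylation, held 180.0 and 188 CPM with DMSO alone, 179.6 and 176 CPM with 150 nM and 142 and 135 CPM with 500 nM. Its 500 nM libraries were the lowest (log2 -0.41 ± 0.036, adjusted p = 1.6e-14, edgeR), and JMJD1C stood at -0.031 (adjusted p = 0.61). Of 16 genes of H3K4 methyltransferase complexes 4 had a domain: KMT2C (-0.21), HCFC1 (-0.19) and KMT2D (-0.089) fell and KMT2A (-0.0090) did not pass the test. With loess offsets 2 of these 4 fell, as with DESeq2.

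Of 22 immediate early genes 8 had a domain, of which FOSL2 (0.79), EGR2 (0.39) and IER2 (0.12) rose and ZFP36 (-0.30) and BTG2 (-0.19) fell. ZFP36 encodes a protein that destabilises cytokine mRNAs, and EGR2 a zinc finger factor induced by receptor signals. The EGR2 domain held 62.1 and 63.1 CPM with DMSO alone, 68.4 and 61.4 CPM with 150 nM and 80.5 and 83.3 CPM with 500 nM, and its 500 nM libraries were the highest. With loess offsets 5 of the 8 rose and 2 fell. Of 24 genes of splicing factors 12 had a domain, of which HNRNPDL (0.20) rose and TRA2A (-0.095) and HNRNPK (-0.085) fell. With loess offsets 7 of the 12 rose and none fell, and DESeq2 called 1 higher and none lower. None of 22 genes of ribosomal proteins had a domain, although all 22 had a peak.

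H3K27ac was not used to choose the domains. At least 1 H3K27ac peak overlapped 1068 of the 1075 domains (99.3%), beside 96.0% of the peers. A domain carried a median of 2 such peaks, and they covered a median of 83.7% of its width against 67.5% in peers. Reads of these peaks were summed per domain and tested across the 16354 H3K4me3 peaks that overlap one. Whole H3K27ac peaks were counted, so reads beyond the edges of a domain are included. This sum is what H3K27ac under the domain means below. The DMSO levels of the 2 marks per kb were weakly related across the 1068 domains (Spearman's rho 0.17).

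At 500 nM H3K27ac under the domain rose at 6 and fell at 7 of 1068 domains, beside 1.13% of all tested peaks called (0.764% higher and 0.361% lower), with a median log2 fold change of 0.034. At an unadjusted p under 0.05 there were 166 domains by edgeR, beside 14% of all tested peaks, and DESeq2 called 4. RIMS3 had the largest rise, with 16.6 and 12.6 CPM with DMSO alone, 13.8 and 12.6 CPM with 150 nM and 33.3 and 37.2 CPM with 500 nM (log2 1.28 ± 0.16, adjusted p = 2.0e-05, edgeR). SCIRT held 189.9 and 212 CPM with DMSO alone, 154 and 188 CPM with 150 nM and 115 and 121 CPM with 500 nM (log2 -0.76 ± 0.099, adjusted p = 2.6e-05, edgeR). Both 500 nM libraries of these domains lay beyond the other 4.

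The number of H3K27ac calls depended on single libraries. It was 6 without DMSO replicate 1, 2 without DMSO replicate 2, 5 without 500 nM replicate 1 and 3 without 500 nM replicate 2. It was 120 and 114 without 150 nM replicate 1 or 2, and 119 with the 4 libraries of the contrast alone. Of the 13 calls, RIMS3 and SCIRT passed under all 15 alternatives. The 2 H3K27ac libraries given 150 nM differed more from each other than the other pairs did. Chi-square per degree of freedom was 2.39 for them, 1.32 for DMSO and 1.25 for 500 nM. All 6 libraries share 1 estimate of the spread, and the part of the 150 nM pair in the count was not tested. The 13 calls thus do not show that H3K27ac was unchanged elsewhere. In 5 H3K27ac peaks on contigs outside the chromosomes DMSO replicate 2 and 150 nM replicate 2 had 71.5 and 45.9 CPM (of all H3K27ac peaks, without TMM). The other 4 libraries had 322 to 446. Adding that difference between libraries to the model, a step chosen after seeing the data, called 74 domains, 59 higher and 15 lower. The replicate number as a block gave 68. The share of all tested peaks called in these alternative fits is not given here. Their counts thus cannot be set against the 1.13% of the main fit.

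The other falls in H3K27ac were at a domain inside NRN1 (-0.82), and at BNIP3 (-0.58), WNT10A (-0.52), MTFP1 (-0.49), LMO3 (-0.44) and RNASET2 (-0.44). H3K4me3 fell as well at all 6, from -1.08 at WNT10A, a secreted Wnt ligand, to -0.27 at RNASET2, a lysosomal ribonuclease. At BNIP3, a receptor of mitophagy, H3K4me3 held 136 and 138 CPM with DMSO alone, 138 and 135 CPM with 150 nM and 86.5 and 89.2 CPM with 500 nM (log2 -0.64 ± 0.041, adjusted p = 3.6e-20, edgeR). The other rises were at CHAC1 (0.54), CEBPB (0.53), a domain inside ARPC5L (0.41), DENND4A (0.41) and IGLL5 (0.36) in the immunoglobulin lambda locus. H3K4me3 rose at CHAC1, CEBPB and ARPC5L and did not pass the test at DENND4A and IGLL5.

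At 150 nM no domain passed the test for H3K27ac, where 0% of all tested peaks did, and 38 had an unadjusted p under 0.05 by edgeR (3.56%, beside 3.61% of all tested peaks) and 10 by DESeq2, which called none. Without 150 nM replicate 1 the fit called 43 domains, and without 150 nM replicate 2 it called 6. Between the doses 11 domains were higher and 5 lower at 500 nM, beside 1.12% of all tested peaks called (0.856% higher and 0.263% lower). At an unadjusted p under 0.05 there were 112 domains, beside 10.5% of all tested peaks. The adjusted count was 4 to 95 when single libraries were left out.

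Among the 68 domains whose H3K4me3 fell by 0.50 or more, H3K27ac was below 0 on the log2 scale in 57 and its median was -0.19. Among the 592 domains that fell by any amount the median was -0.0059, among the 405 not called 0.067, and among the 71 that rose and had an H3K27ac peak 0.12. H3K27ac was above 0 in 55 of the 71, beside 273 of the 405 not called and 287 of the 592 that fell. Spearman's rho between the 2 changes was 0.40 over 1068 domains, which share their width and the treatment groups. At SLC16A3, where H3K4me3 was 2.29-fold lower, H3K27ac held 5.98 and 6.82 CPM with DMSO alone, 7.01 and 7.73 CPM with 150 nM and 6.03 and 7.43 CPM with 500 nM. The 500 nM and DMSO libraries overlapped. These H3K27ac levels are low, so a moderate change there could go unseen.

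**Figure D5:**
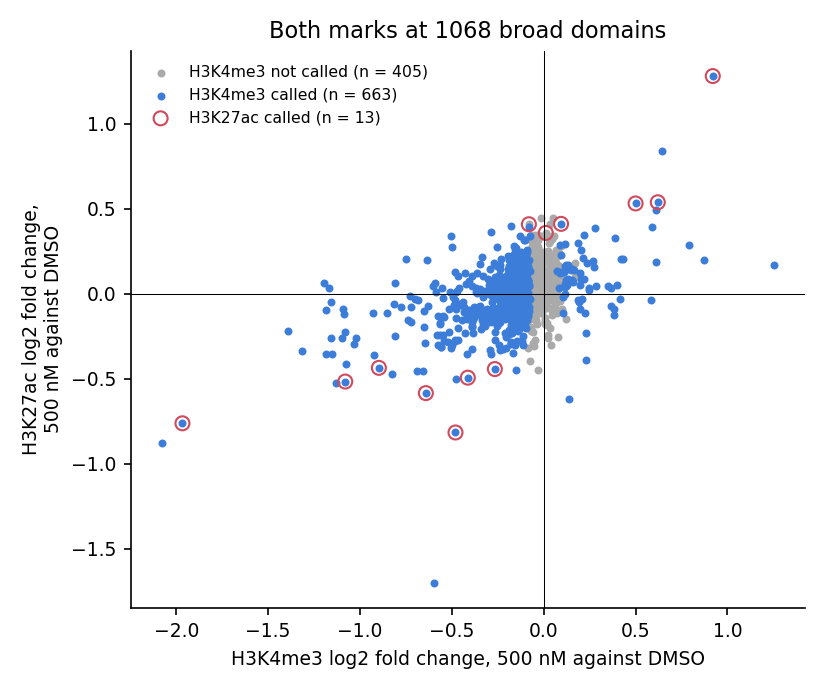
Log2 fold change at 500 nM against DMSO of H3K27ac summed under the domain (vertical axis) and of H3K4me3 (horizontal axis), 1 point per domain (n = 1068). Blue points passed the H3K4me3 test (663) and red rings the H3K27ac test (13); RIMS3 is the ringed point at 0.92 and 1.28, and SCIRT the one at -1.97 and -0.76.

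The values on each side of the width threshold were as follows. The 3 narrowest domains lay over PPP1R2 (4001 bp), HMGN1 (4003 bp) and ANKRD17 (4003 bp), with log2 fold changes of 0.031, -0.048 and -0.032 at 500 nM. The 3 widest peaks below the threshold lay over ATAD2B (3999 bp), an end of LINC01754 (3997 bp) and ends of KCTD9 and CDCA2 (3997 bp), with -0.12, -0.51 and -0.13.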

How the data were processed

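Per the labels' protocols, chromatin immunoprecipitates were sequenced as single reads of 50 bp; 12 of the series' 30 libraries are used, and the 18 of other targets are not analysed here. The deposited values are raw counts of reads per consensus peak, made by the authors with featureCounts 2.0.1 per the file headers, with a minimum overlap fraction of 0.2 and a paired-end option that does not match the labels' single reads; its effect on the counts is not known. The submitters' processing notes name GRCh38, BWA 0.7.17-r1188 and MACS2 2.2.7.1; printed starts are the deposited ones plus 1.

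Counts of each mark were fitted with edgeR 4.0.16 (R 4.3.3; filterByExpr, TMM, 1 fit of 6 libraries, glmQLFTest, Benjamini-Hochberg over all tested peaks, threshold 0.05). TMM assumes that most peaks do not change, so values are relative to the other peaks. H3K27ac counts were summed over H3K27ac peaks sharing at least 1 bp with an H3K4me3 peak. DESeq2 1.42.0 and loess offsets from limma 3.58.1 were alternatives. The scripts were tested on simulated data. Of 100 changes of 0.3 on the log2 scale they recovered 48% for H3K4me3 and 4% for summed H3K27ac. Of 100 changes of 1 they recovered 77% and 81%. A small change in H3K27ac could thus go uncalled. The changed peaks were drawn at random from all tested peaks. Recovery at the broad domains, which have a higher median count, was not simulated apart. Same-numbered replicates were not treated as pairs, because the rule needed their deviations to correlate over 0.1 for every pair of groups. The correlations were 0.053, 0.091 and 0.026 (H3K4me3) and 0.19, 0.041 and 0.11 (H3K27ac). For H3K27ac they passed 0.1 between DMSO and 150 nM and between 150 nM and 500 nM. The rule thus does not settle whether the H3K27ac libraries were paired.

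Domains named were the 5 widest, the 5 densest, the 8 largest rises and falls, the 2 largest H3K27ac rises and falls, those over listed genes and the 3 on each side of the width threshold. The rule asked for both 500 nM libraries beyond both DMSO libraries. Other domains called for H3K27ac were named after their values were seen. The members and gene lists were chosen with earlier results of these data known. Some members of the lists are not reported here by name.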

Additional observations from a re-analysis of the deposited data

How the results depend on the processing

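Counts of called domains are given against the values in the report. The share of all tested peaks called under each alternative is not given here, so these counts do not compare domains with other peaks. For H3K4me3 at 500 nM against DMSO (666), DESeq2 called 393, domains of at least 5000 bp gave 303 and of at least 3500 bp 1021, and leaving out single libraries gave 573 to 649. For 500 nM against 150 nM (676) the same settings gave 401, 307, 1031 and 524 to 713. For 150 nM against DMSO (0), leaving out single libraries gave 0 to 1 (the 1 without DMSO replicate 1). For H3K27ac at 500 nM against DMSO (13), the replicate number as a block gave 68, the 4 libraries of the contrast alone 119, DESeq2 4, the library split as a term (chosen after seeing the data) 74, and leaving out single libraries 2 to 120. For 500 nM against 150 nM (16) the block gave 43, DESeq2 6, the split term 42, and leaving out single libraries 4 to 95. For 150 nM against DMSO (0), leaving out single libraries gave 0 to 43. The median H3K4me3 change of the domains (-0.10) was -0.066 scaled by the total count, -0.032 with loess offsets, -0.078 with a mean count of at least 50, -0.13 at 5000 bp or more, -0.090 over listed starts, and -0.11 to -0.10 without single libraries. Its distance from the matched peaks (-0.066) was -0.036 with loess offsets, -0.095 at 5000 bp or more, -0.089 against peers of 1000 to 2000 bp, and -0.082 to -0.064 without single libraries. With loess offsets the sign turned at 24 of 106 named domains, of which 20 passed the test in neither fit; the others were BCL2 (0.024), MYC (0.077), CXCR4 (0.065) and HNRNPA2B1/CBX3 (0.069). Of 1484 values of named domains under the alternatives, 1380 kept their side of the threshold (sign turns of values that passed in neither fit among them), 67 lost significance, 33 gained it and 4 turned with a call in 1 of the fits. With the replicate block H3K4me3 gave 698, 0 and 711 calls for the 3 comparisons; the shared numbers are no pairing in the labels. The cause of these differences was not tested. The replicates number 2 a group, so each spread rests on few libraries. The counts give no measure of a change common to all peaks, and a small fall at a deep domain depends on the scaling.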

Other observations

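Broad domains made up 7.25% of the tested H3K4me3 peaks on chromosome 4, the highest share, and 3.87% on chromosome 19, the lowest (52 of 1345 peaks).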
